A study of Mus musculus with 8 samples.

Results

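Transcripts of ion channel genes of the Kcn, Scn and Cacn families were followed in mouse cortical neurospheres that had been exposed to ethanol and in control neurospheres. Members were the probes whose gene symbol in the array's platform annotation begins with Kcn and a letter, with Scn, a number and a or b, or with Cacna, Cacnb or Cacng. The rule found 111 probes for 94 genes among 21582 probes on the array (15094 genes with a single symbol), and 83 of them, for 76 genes, had enough computable ratios to be tested, among 15345 tested probes in all. The families are usually grouped as voltage-gated potassium, sodium and calcium channels, but the rule is wider than that name. Of the tested probes, 18 belong to inward rectifiers (Kcnj) and tandem-pore channels (Kcnk), 3 to small- or intermediate-conductance channels opened by calcium (Kcnn), and 2 to long non-coding RNAs named after a neighbouring channel gene, Kcnd3os and Kcnmb4os1.

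The study hybridised 8 mouse arrays (22K format) with 2 dyes, each array carrying RNA from control and ethanol-exposed spheres together. Neurospheres are floating aggregates grown from dissociated neural progenitors, here from the cortex of mice at gestational day 12.5. Both conditions grew in serum-free medium with basic fibroblast growth factor, epidermal growth factor (EGF) and leukemia inhibitory factor (LIF), and both were differentiated by withdrawing EGF and LIF. The exposed spheres had 320 mg/dl ethanol in the growth medium for 5 days before differentiation and then 3 days of differentiation without it, and the controls had no ethanol. On 4 arrays (replicates 1 to 4) the ethanol-exposed RNA carried the dye Cy3, and on the other 4 (replicates 5 to 8, the dye flips) it carried Cy5. The codes of replicates 3, 4 and 8 end in the letter r, which the labels do not explain. Each code also holds a number, which is the same for replicates 1 and 5, 2 and 7, and 3 and 8. Whether arrays with the same number share a culture is not given. Neither strain, sex nor the number of embryos is given in the sources used here, and whether the arrays hold RNA of separate cultures is not stated, so the p-values cover array-to-array spread that could be purely technical. RNA from whole spheres mixes cell types, in which fewer cells of a type and less RNA per cell cannot be told apart.

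Voltage-gated channels open and close with the membrane potential: sodium channels carry the upstroke of the action potential, potassium channels end it and set firing rate, and calcium channels turn it into calcium entry that drives transmitter release and gene transcription. Each is built from a pore-forming subunit and auxiliary subunits that bring the pore to the membrane and tune its gating. Inward rectifiers and tandem-pore channels keep the resting potential, and in the developing cortex progenitors, young neurons and glia each carry their own mix of these proteins.

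The 3 genes with a probe that passed the adjusted threshold all encode auxiliary subunits, and the sequence around the transcription start is printed for Kcnip2 and Cacna2d1 to show how these starts differ. They are Kcnip2, a calcium-binding protein that attaches to Kv4 potassium channel pores, Cacna2d1, the alpha2delta subunit of high-voltage-activated calcium channels, and Cacng3, a member of the gamma subunit family that also escorts AMPA-type glutamate receptors. Auxiliary subunits are common among the 83 tested probes, with 10 for voltage-gated potassium channels and 4 each for calcium channel beta and gamma types. So few calls do not set auxiliary subunits apart. The start of Kcnd2, which encodes a Kv4 pore that Kcnip2 binds, is added because its own probe had one of the larger ratios of the set. Each line runs 5′ to 3′ in the direction of transcription, from 250 bases before to 50 bases after the RefSeq start (build GRCm38.p6), with capitals for GC boxes, the letters GGGCGG or, on the other strand, CCGCCC.
Kcnip2, chr19:45816014-45816313, minus strand: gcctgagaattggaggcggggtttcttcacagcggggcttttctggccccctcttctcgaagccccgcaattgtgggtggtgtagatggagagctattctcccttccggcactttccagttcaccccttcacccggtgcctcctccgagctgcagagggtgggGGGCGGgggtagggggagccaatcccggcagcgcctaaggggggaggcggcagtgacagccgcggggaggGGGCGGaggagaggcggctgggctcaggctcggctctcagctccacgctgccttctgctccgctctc
Cacna2d1, chr5:15934441-15934740, plus strand: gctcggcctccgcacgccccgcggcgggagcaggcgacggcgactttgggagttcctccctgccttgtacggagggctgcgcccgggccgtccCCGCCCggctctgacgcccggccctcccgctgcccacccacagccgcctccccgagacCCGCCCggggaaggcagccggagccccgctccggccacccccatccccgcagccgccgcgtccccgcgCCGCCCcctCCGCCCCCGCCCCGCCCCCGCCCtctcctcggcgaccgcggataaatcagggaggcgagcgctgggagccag
Kcnd2, chr6:21215096-21215395, plus strand: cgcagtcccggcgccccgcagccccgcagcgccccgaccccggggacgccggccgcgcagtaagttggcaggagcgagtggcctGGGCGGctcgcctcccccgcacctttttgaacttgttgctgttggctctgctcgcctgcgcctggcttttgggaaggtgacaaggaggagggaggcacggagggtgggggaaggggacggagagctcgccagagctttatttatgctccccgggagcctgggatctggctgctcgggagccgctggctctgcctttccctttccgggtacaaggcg

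The Cacna2d1 start had 7 GC boxes, some of them sharing a base, 42 CG dinucleotides and 80% G or C. The Kcnip2 start had 2 GC boxes and 18 CG dinucleotides, and Kcnd2 had 1 and 26. None of the 3 held the letters TATAAA, the core of a promoter element that sets the start, on either strand. TTCAGCACC, the left arm of the RE1 element that the neuronal gene repressor REST binds, was absent from both strands as well. Members on chromosome 18 (Kcnn2) were left out of the counts that follow, a step not applied to the mouse-wide starts. RefSeq had 107 starts for 75 of the other member genes. A GC box lay in 46 of these (43.0%), against 35.7% of 32851 mouse starts of the same length, and TATAAA in 6 (5.61%), against 13.6%. The 6 belong to Kcnj9, Scn2a, Kcnab1, Kcnj16, Cacna1d and Kcnj15. TTCAGCACC was in 0 of the 107 and in 0.371% of all starts. A match describes letters in this window and is not evidence that a factor binds there.

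Values are log2 ratios as the authors deposited them, centred here on each array's median. Whether a ratio is control over ethanol, ethanol over control or dye over dye is not recorded. The sample records and the series design text also disagree on the channel order of the dye flips. Every value therefore had to be read in both ways. The shared part of a probe is the mean of both orientations: if each ratio was written as condition over condition, this is where an ethanol effect appears. The turning part measures how far the ethanol-in-Cy5 mean lies above that midpoint (and the ethanol-in-Cy3 mean below it): if each was written as dye over dye, the effect appears here instead. The part that is not the ethanol effect holds the dye effect, and the sign of neither says whether exposed cells had more or less transcript. The orientations were run on different arrays, so any other difference between the 2 sets of arrays would also enter the turning part and cannot be told apart there. Both parts were fitted with limma over all 15345 tested probes, with Benjamini-Hochberg adjustment over all of them and a threshold of 0.05, and ± marks the standard error (SE) of the fit.

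Ratios were about as often computable for the channel probes as for the rest of the array. Of the 111 members 74.8% could be tested, against 71.1% of all probes, and on single arrays 82 to 104 of them had a ratio. The spread between arrays of the same orientation had a median SD of 1.30 over the tested members and 1.25 over all tested probes. Values over 5 in size made up 1.42% of the members' 636 values and 1.17% of all values. The 9 such values were 6.17 for Cacng3 on replicate 2, -6.16 for Kcnab1 on replicate 8, 6.00 for Kcnh2, -5.56 for Kcnj5 and -5.17 for Kcnk7 on replicate 6, -5.01 and 5.28 for Kcnip2 on replicates 4 and 8, -5.56 for a Kcnq1 probe on replicate 7 and 7.08 for Kcns1 on replicate 5.

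**Figure D1:**
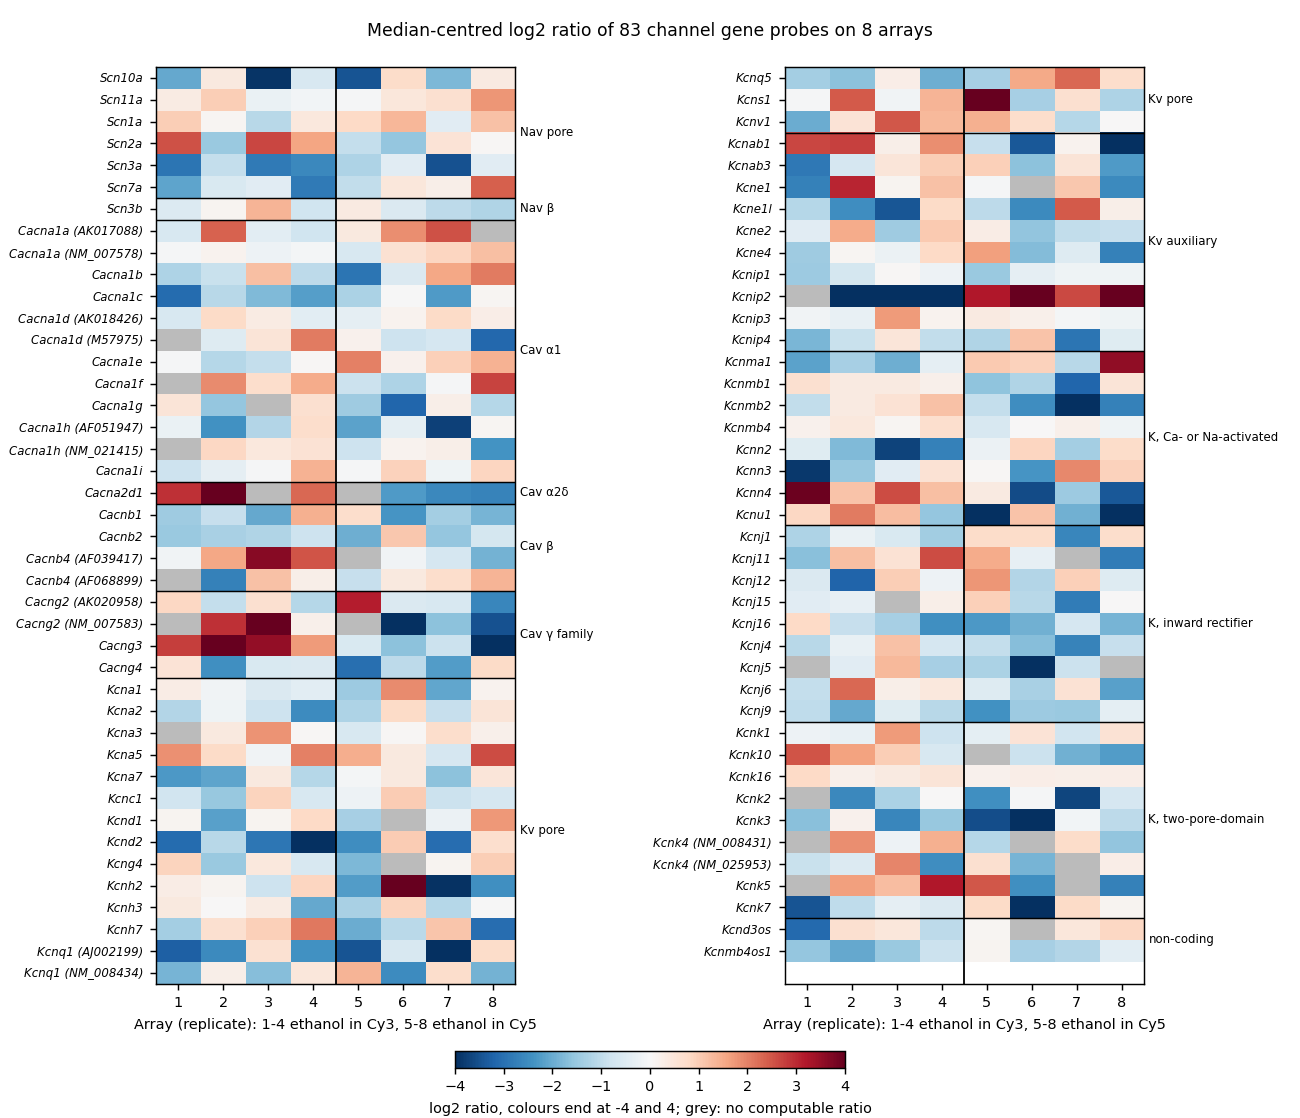
Centred log2 ratio (colour) of the 83 tested member probes (rows, grouped by channel subfamily) on the 8 arrays (columns, replicates 1 to 4 with ethanol-exposed RNA in Cy3 and 5 to 8 in Cy5), with blanks where no ratio could be computed. Kcnip2 changes sign between the orientations, whereas Scn3a and Kcnj9 are negative on all 8 arrays.

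Across the members, the arrays with ethanol in Cy3 resembled each other more than those with ethanol in Cy5. The Pearson correlation over the channel probes was 0.37 to 0.48 for the 6 pairs of ethanol-in-Cy3 arrays. It was -0.05 to 0.44 for the 6 pairs of ethanol-in-Cy5 arrays, among which replicates 5 and 7 (0.36) and replicates 6 and 8 (0.44) were alike and the other 4 pairs reached at most 0.18. Between orientations it ran from -0.57 to 0.26, lowest for replicate 8 against the ethanol-in-Cy3 arrays (-0.31 to -0.57). Over all tested probes the same 3 ranges were 0.25 to 0.37, 0.14 to 0.33 and -0.28 to 0.07. Probes are not independent and share their array's hybridisation, so these correlations are descriptions.

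**Figure D2:**
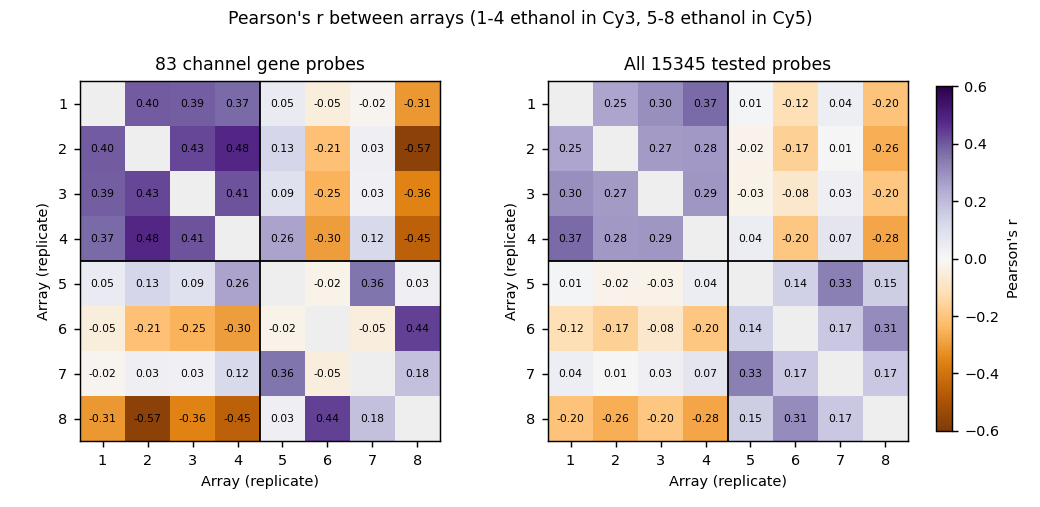
Pearson correlation of centred log2 ratios between each pair of the 8 arrays, over the tested channel probes and over all tested probes (colour scale from negative to positive). Replicates 1 to 4 form a block at 0.37 to 0.48 over the channel probes, while replicates 6 and 8 pair at 0.44 and are negative against that block.

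No channel probe passed the threshold in the shared part, and 3 of 83 (3.61%) passed in the turning part. Over all tested probes limma called 0% in the shared part and 1.56% in the turning part. The 3 probes were those of Kcnip2, Cacna2d1 and Cacng3. At an unadjusted p under 0.05 the shared part had 17 members (20.5%, against 13.9% of all tested probes), of which 16 were negative (19.3%, against 9.01%) and 1 was positive (1.2%, against 4.88%). The smallest adjusted p among members in the shared part was 0.169. The turning part had 16 members at an unadjusted p under 0.05 (19.3%, against 13.8%), 6 positive (7.23%, against 8.69%) and 10 negative (12%, against 5.14%). The values of the orientations did not overlap for 10 members (12%, against 10.9%), and 3 members (3.61%, against 3.58%) kept 1 sign on every array.

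The shared part of the channel probes leaned to negative values. It was negative for 59 of 83 (71.1%), against 53.9% of all tested probes, with a median of -0.30 against -0.06 and the middle of the members' values from -0.82 to 0.10. Without the arrays coded r the members' median was -0.50. With 1 probe per gene, 54 of 76 genes were negative (71.1%), with a median of -0.32. Receptors for neurotransmitters, another set of neuronal membrane proteins, had a median shared part of 0.00 over 64 tested probes, and proteins of vesicle release -0.14 over 68. The median turning part of the channels was -0.09, against 0.11 over all tested probes. That of the neurotransmitter receptors was lower, -0.22 with 39 of 64 negative, and that of vesicle release was 0.12 with 29 of 68 negative. At an unadjusted p under 0.05 the turning part had 23.4% of the receptor and 16.2% of the vesicle release probes (13.8% of all tested probes). The shared part had 14.1% and 20.6% (13.9% of all), so the channels' 20.5% there was not particular to them. With the values as deposited, the members' median turning part was 0.23 and that of all probes 0.42, so that the members lay 0.19 below the whole array under both scalings while the sign of their median changed. Without the arrays coded r no such gap was seen, with 0.08 for the 72 of these members that still had enough values and 0.09 for all probes. The turning part was negative for 49 of 83 members when centred and for 30 of 83 as deposited.

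**Figure D3:**
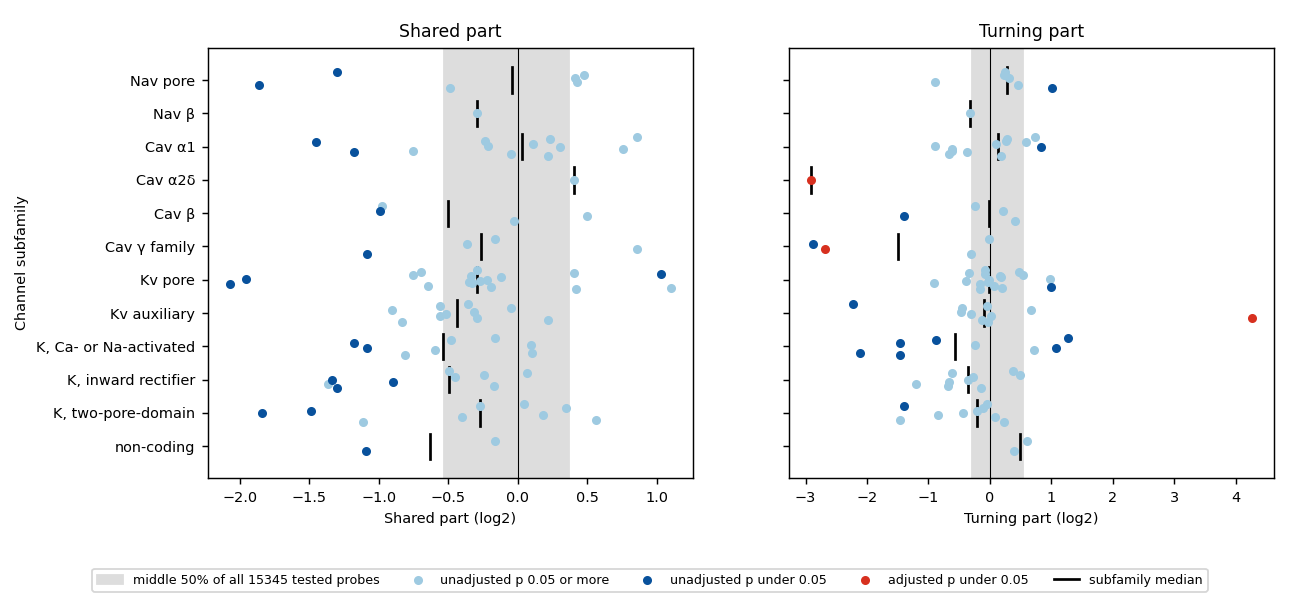
Shared part and turning part (log2 scale) of each tested channel probe, 1 point per probe, by subfamily, with a bar at each subfamily's median and a grey band for the middle of all tested probes. Inward rectifiers and auxiliary subunits of voltage-gated potassium channels lie mostly below 0 in the shared part, and the outlying points of the turning part are Kcnip2 above and Cacna2d1, Cacng2 and Cacng3 below.

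Sodium channel pores, which carry the action potential's upstroke, had shared parts of both signs. In the shared part 3 of 6 tested probes were negative, with a median of -0.04. Scn3a, the pore that prevails in embryonic brain neurons, gave -2.92, -0.97, -2.83 and -2.58 on replicates 1 to 4 and -1.24, -0.45, -3.48 and -0.45 on replicates 5 to 8. It was negative on all 8 arrays, nearest to 0 on replicates 6 and 8, and the orientations overlapped. Its shared part was -1.86 ± 0.42 (n = 8), the smallest p among the members, yet it did not pass the threshold (limma adjusted p = 0.169). Scn1a and Scn2a, the main pores of mature inhibitory and excitatory neurons, had shared parts of 0.41 ± 0.34 and 0.43 ± 0.49, and the turning part of Scn2a was -0.90. Scn10a, known from sensory neurons, had -1.30 ± 0.58 (unadjusted p = 0.0489). Scn7a, a relative that senses sodium, had a turning part of 1.01 ± 0.43 (unadjusted p = 0.0414). The auxiliary subunit Scn3b had a shared part of -0.29 ± 0.35 and a turning part of -0.33, and Scn9a and Scn2b could not be tested.

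All 9 genes for calcium channel pores on the array could be tested, with 12 probes split evenly between positive and negative shared parts. Their median shared part was 0.03 when centred and -0.02 as deposited. Cacna1c, the L-type pore that couples activity to transcription, gave -3.08, -1.10, -1.77 and -2.19 on replicates 1 to 4 and -1.28, -0.01, -2.26 and 0.08 on replicates 5 to 8. It was below 0 on 7 of 8 arrays and near 0 on replicates 6 and 8. Its shared part was -1.45 ± 0.37 (limma adjusted p = 0.194). Cacna1d, the other neuronal L-type pore, had shared parts of 0.11 and -0.21 at its 2 probes. Cacna1a and Cacna1b, the P/Q- and N-type pores of presynaptic terminals, had 0.86 ± 0.48 and 0.23 ± 0.30 at the 2 Cacna1a probes and -0.23 ± 0.55 at the Cacna1b probe. The T-type pores, which open near rest, had -0.76 ± 0.48 for Cacna1g and -1.18 ± 0.49 (unadjusted p = 0.0387) and -0.05 at the 2 Cacna1h probes. Cacna1e, the R-type pore, gave -0.06, -1.15, -0.96 and 0.05 on replicates 1 to 4 and 2.02, 0.17, 0.95 and 1.40 on replicates 5 to 8, without overlap. Its turning part of 0.83 ± 0.32 did not pass (limma adjusted p = 0.282).

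Among the calcium channel probes, the 3 largest turning parts belonged to auxiliary subunits of the alpha2delta and gamma types. Cacna2d1, which carries the pore to the membrane and is the binding site of gabapentin, gave 2.94, 4.70 and 2.29 on replicates 1, 2 and 4 and -2.25, -2.58 and -2.67 on replicates 6 to 8. All 3 values with ethanol in Cy3 were positive and all 3 with ethanol in Cy5 were negative. Its ratio was not computable on replicate 3 (an exact 0) and sat at the array's highest value on replicate 5, and the fit used the other 6. The turning part was -2.91 ± 0.42 (limma adjusted p = 0.0135), a ratio of 7.49-fold, and the shared part 0.40 ± 0.42. The call ended without replicate 6, 7 or 8 (adjusted p = 0.0573, 0.0528 and 0.0686), without the arrays coded r (0.148), with the array code number as a fixed block over only 6 arrays (-3.64, 0.390), with exact 0 kept (0.0575) and with the highest value of replicate 5 kept, where the turning part was -0.54 (adjusted p = 0.946). Over 18 other settings that gave it a value, it passed in 11.

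Cacng3 gave 2.76, 6.17, 3.52 and 1.71 on replicates 1 to 4 and -0.61, -1.66, -0.86 and -4.19 on replicates 5 to 8. The orientations did not overlap, with every ethanol-in-Cy3 array positive and every ethanol-in-Cy5 array negative. Its turning part was -2.69 ± 0.55 (limma adjusted p = 0.0422), a ratio of 6.43-fold, and the shared part 0.86 ± 0.55. It lay close to the threshold: without any 1 of the 8 arrays the adjusted p was 0.0527 to 0.118, and over 19 other settings it passed in 6, with adjusted p from 0.0306 to 0.207.

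Cacng2 (stargazin), the best known AMPA receptor escort of the gamma family, had 2 tested probes that differed. Probe NM_007583 gave 2.93, 4.39 and 0.20 on replicates 2 to 4 and -4.61, -1.64 and -3.48 on replicates 6 to 8, with a turning part of -2.87 ± 0.62 that did not pass (limma adjusted p = 0.073). Its signs followed those of Cacng3 on the 6 arrays, without overlap of the orientations. Probe AK020958 had a turning part of -0.01 ± 0.57. The fourth gamma probe, Cacng4, had a shared part of -1.08 ± 0.47 (unadjusted p = 0.0451), and the median turning part of the 4 gamma probes was -1.49, all 4 negative when centred and 2 of 4 as deposited. Beta subunits, which bind inside the cell and traffic the pore, had shared parts of -0.99 ± 0.37 for Cacnb2 (limma adjusted p = 0.287) and -0.98 ± 0.47 for Cacnb1. The Cacnb4 probes had turning parts of opposite sign, -1.40 ± 0.48 (AF039417, adjusted p = 0.238) and 0.40 ± 0.51 (AF068899).

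**Figure D4:**
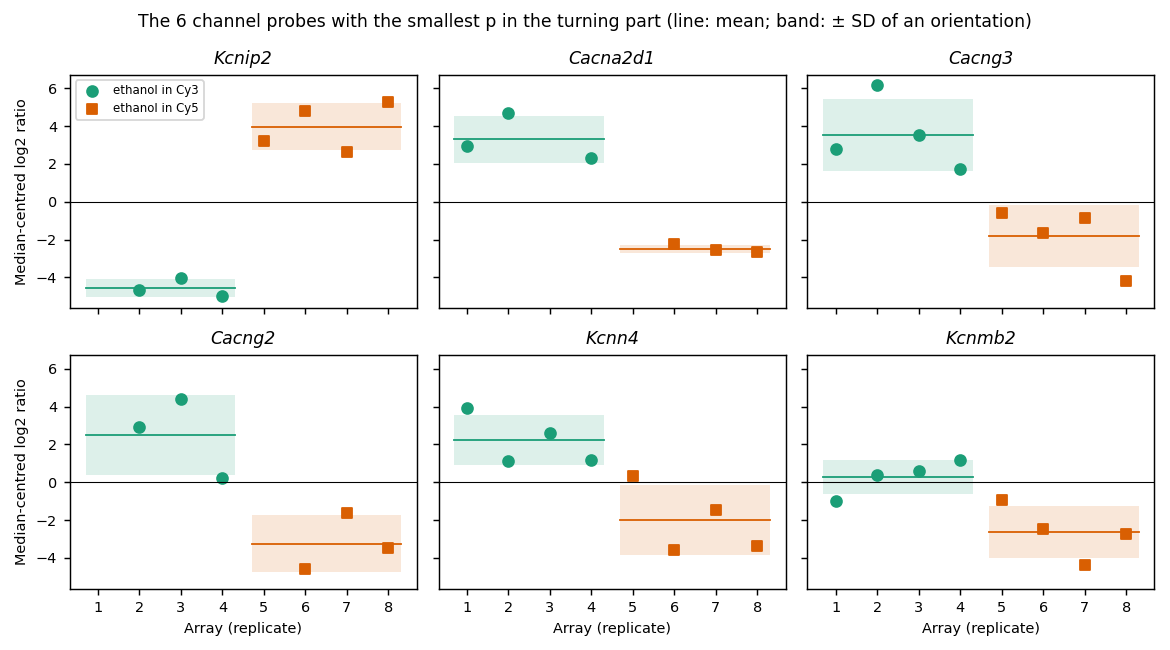
Centred log2 ratios per array for 6 members with the smallest p in the turning part (1 panel per probe), with points for replicates 1 to 4 (ethanol-exposed RNA in Cy3) and 5 to 8 (in Cy5) a line at each orientation's mean and a band of ± SD. Kcnip2 runs from -5.01 to -4.02 in the former and from 2.63 to 5.28 in the latter, and Cacna2d1 and Cacng3 run the other way.

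Kcnip2 had the smallest p of any channel probe in either part. Its ratio was -4.66, -4.02 and -5.01 on replicates 2 to 4 and 3.20, 4.78, 2.63 and 5.28 on replicates 5 to 8, with none computable on replicate 1. All ethanol-in-Cy3 arrays lay below -4 and all ethanol-in-Cy5 arrays above 2, and their means were -4.56 ± 0.50 (SD, n = 3) and 3.97 ± 1.26 (SD, n = 4). The turning part was 4.27 ± 0.41 (limma adjusted p = 0.000491), a ratio of 19.3-fold, and the shared part -0.30 ± 0.41. Over 17 other settings it passed in 16, with turning parts of 3.65 to 4.58, and missed it with the array code number as a fixed block over only 6 arrays (4.15, adjusted p = 0.146). Without the arrays coded r it had too few values to be tested.

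No other tested gene of the Kv4 complex passed the threshold in either part. Of all tested probes 0% passed in the shared part and 1.56% in the turning part, so this is not a result about the complex. Kcnip1, Kcnip3 and Kcnip4, the closest relatives of Kcnip2, had turning parts of 0.02 ± 0.31, -0.13 ± 0.32 and -0.03 ± 0.45. Dpp6, an auxiliary protein of the same channels from the list of related genes, gave 1.82, 0.11, -0.12 and 2.28 on replicates 1 to 4 and -2.22, -2.89, -1.54 and -1.69 on replicates 5 to 8. Its turning part of -1.55 ± 0.37 had the sign opposite to that of Kcnip2 and did not pass (limma adjusted p = 0.073). Kcnd2, the pore, gave -3.08, -1.10, -2.91 and -4.65 on replicates 1 to 4 and -2.49, 1.01, -3.06 and 0.67 on replicates 5 to 8. It was negative on 6 of 8 arrays, the exceptions being replicates 6 and 8, and its shared part was -1.95 ± 0.56 (limma adjusted p = 0.226), with a turning part of 0.99. Kcnd1 had a shared part of -0.12 ± 0.49, and Kcnd3 could not be tested.

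Pores and auxiliary subunits of voltage-gated potassium channels, those of the Kv4 complex included, were mostly negative in the shared part. Of 17 tested pore probes 13 were negative, with a median of -0.29, and of 10 auxiliary probes 9 were, with a median of -0.44. Kcnq1, known from heart and epithelia, had the most negative value, with shared parts of -2.07 ± 0.69 (AJ002199, limma adjusted p = 0.250) and -0.65 ± 0.51 (NM_008434). Axonal and fast-firing pores had smaller values: -0.29 ± 0.43 for Kcna1, -0.69 ± 0.37 for Kcna2 and -0.34 ± 0.36 for Kcnc1. Kcna5 was the exception at an unadjusted p under 0.05, with 1.03 ± 0.42 (limma adjusted p = 0.320) and positive ratios on 6 of 8 arrays. Kcnh2, the hERG pore, had a shared part of -0.27 ± 0.92 and values from -3.95 to 6.00 over replicates 5 to 8, the widest spread of a pore probe with ethanol in Cy5. Kcnq5, an M-current pore, had a turning part of 0.99 ± 0.44 (unadjusted p = 0.0478). Kcnab1, a cytoplasmic beta subunit, gave 2.67, 2.72, 0.22 and 1.86 on replicates 1 to 4 and -0.91, -3.40, 0.13 and -6.16 on replicates 5 to 8. The orientations did not overlap, though by 0.22 against 0.13 only, and the turning part of -2.23 ± 0.64 did not pass (limma adjusted p = 0.138).

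Potassium channels opened by calcium, with their Slo relatives, had the largest share of low p-values in the turning part among the subfamilies with several probes. None of the 8 tested probes passed the threshold, against 0% (shared part) and 1.56% (turning part) of all tested probes. In the turning part 6 of 8 (75%) had an unadjusted p under 0.05, against 13.8% of all tested probes. The signs were mixed, with 4 negative and 2 positive. Kcnn4, the intermediate-conductance channel, gave 3.92, 1.15, 2.62 and 1.19 on replicates 1 to 4 and 0.35, -3.58, -1.45 and -3.40 on replicates 5 to 8. All ethanol-in-Cy3 values lay above all ethanol-in-Cy5 values, and the turning part of -2.12 ± 0.51 missed the threshold (limma adjusted p = 0.079) but passed it without replicate 5 (adjusted p = 0.038). Kcnma1, the pore of the large-conductance (BK) channel, gave -2.14, -1.33, -1.94 and -0.35 on replicates 1 to 4 and 1.06, 0.92, -1.11 and 3.56 on replicates 5 to 8. Its turning part was 1.27 ± 0.47 (adjusted p = 0.267).

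A further Kcnma1 probe, AF295095, had too few values to be tested and gave -1.08, 0.78 and 2.53 on replicates 1, 3 and 4 and -1.10 and -1.14 on replicates 6 and 8, unlike the tested probe.

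None of the 3 tested auxiliary subunits of the BK channel passed the threshold in either part, against 0% (shared part) and 1.56% (turning part) of all tested probes. Kcnmb2 gave -0.98, 0.36, 0.58 and 1.16 on replicates 1 to 4 and -0.96, -2.49, -4.37 and -2.72 on replicates 5 to 8, and replicates 1 and 5 were alike. Its turning part was -1.46 ± 0.41 (limma adjusted p = 0.132) and its shared part -1.18 ± 0.41 (adjusted p = 0.263). Kcnmb1, best known from smooth muscle, had -0.88 ± 0.39 (unadjusted p = 0.047), and Kcnmb4, the neuronal form, -0.25 ± 0.27. Kcnn2, a small-conductance channel of the afterhyperpolarisation, had a shared part of -1.08 ± 0.42 (adjusted p = 0.303) and a turning part of 1.08 ± 0.42 (adjusted p = 0.287), being most negative with ethanol in Cy3 (-0.48, -1.75, -3.71 and -2.72) and between -1.37 and 0.86 with it in Cy5. Kcnu1, a sperm channel of the Slo family, had a turning part of -1.47 ± 0.62 (unadjusted p = 0.0405).

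Inward rectifiers, which hold the resting potential and let potassium into glia, were negative in the shared part for 8 of 9 tested probes, with a median of -0.49. Kcnj9, a G-protein-gated subunit of neurons, gave -1.01, -2.04, -0.50 and -1.10 on replicates 1 to 4 and -2.43, -1.45, -1.49 and -0.39 on replicates 5 to 8. It was negative on all 8 arrays in much the same range in both orientations, and its shared part of -1.30 ± 0.33 did not pass (limma adjusted p = 0.185). Kcnj16, a subunit that pairs with other inward rectifiers in glia and kidney, had -1.34 ± 0.39 (adjusted p = 0.228) and Kcnj4, a strong rectifier of neurons, -0.89 ± 0.36 (unadjusted p = 0.0309). None of the 9 had an unadjusted p under 0.05 in the turning part, against 13.8% of all tested probes. With so few probes this does not set them apart.

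Tandem-pore channels, which carry the background leak of potassium, were split, with 5 of 9 tested probes negative in the shared part when centred and 6 of 9 as deposited. Kcnk3, an acid-sensitive leak channel, gave -1.67, 0.16, -2.60 and -1.51 on replicates 1 to 4 and -3.53, -4.39, -0.11 and -1.05 on replicates 5 to 8. It was negative on 7 of 8 arrays, lowest on replicates 5 and 6, and its shared part was -1.84 ± 0.52 (limma adjusted p = 0.220). Kcnk2, a leak channel opened by stretch, had -1.49 ± 0.52 (n = 7, adjusted p = 0.268). Its relative Kcnk10 gave 2.53, 1.60, 1.00 and -0.63 on replicates 1 to 4 and -0.86, -1.92 and -2.23 on replicates 6 to 8, with a turning part of -1.40 ± 0.43 (adjusted p = 0.183). Its orientations did not overlap, by -0.63 against -0.86. Kcnk1 had a shared part of 0.04 ± 0.36, and the 2 Kcnk4 probes had 0.18 ± 0.47 and -0.40 ± 0.55. Kcnk16, known from pancreas, was the only member with positive ratios on all 8 arrays, all between 0.18 and 0.81.

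Of the 2 long non-coding RNAs, Kcnmb4os1 gave -1.54, -2.04, -1.49 and -0.87 on replicates 1 to 4 and 0.10, -1.32, -1.18 and -0.42 on replicates 5 to 8. It was below 0 on 7 of 8 arrays, and its shared part was -1.09 ± 0.30 (limma adjusted p = 0.212). The probe of the Kcnmb4 gene itself had a shared part of 0.09 ± 0.27. Kcnd3os had -0.16 ± 0.48.

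**Figure D5:**
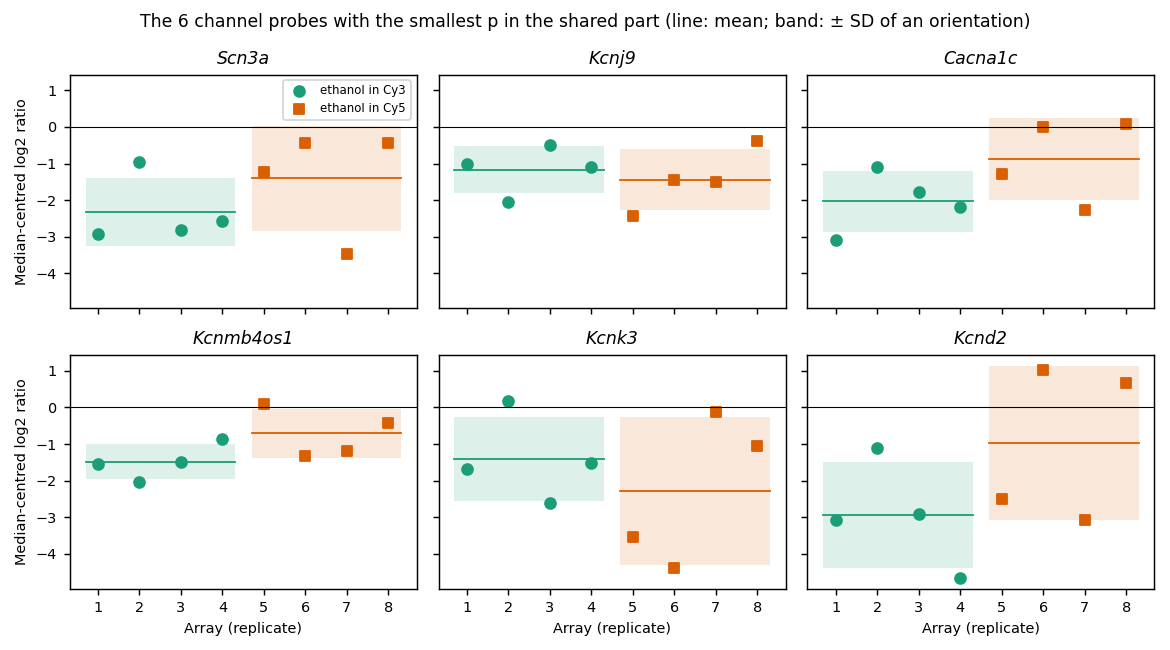
Centred log2 ratios per array for 6 members with the smallest p in the shared part (1 panel per probe), with points for replicates 1 to 4 (ethanol-exposed RNA in Cy3) and 5 to 8 (in Cy5) a line at each orientation's mean and a band of ± SD. Scn3a and Kcnj9 are negative on all 8 arrays, whereas Cacna1c and Kcnd2 come near or above 0 on replicates 6 and 8.

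Where a gene had several probes, they often differed. Among the 7 genes with more than 1 tested probe, the shared parts had the same sign for 4 (Cacna1a, Cacna1h, Cacng2 and Kcnq1) and the turning parts for 3 (Cacna1a, Cacna1h and Cacng2). As deposited, the turning parts of the Cacng2 probes differed in sign and those of the Kcnq1 probes had the same sign. The widest gap was that of Cacng2 in the turning part, 2.86 on the log2 scale, followed by 1.80 for Cacnb4. The widest in the shared part was that of Kcnq1, 1.42.

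The 28 untested probes include all probes of 18 genes. Ratios were computable on 6 arrays for Kcnh5 and Kcnj3, on 5 for Cacng6, Kcne3, Kcna4, Kcna6, Kcnc2, Kcnd3, Kcnh1 and Scn9a, on 4 for Kcnn1, Kcnab2 and Kcnj2, on 3 for Cacna2d3, Cacng1 and Kcnj8, on 2 for Scn2b and on 1 for Cacna2d2. The other 10 are further probes of Kcnma1, Cacnb4, Kcnd1, Kcnh3, Kcnq1, Scn3b, Scn7a and Kcnj6. Just inside the filter, with 3 values in each orientation, were probes of Cacna2d1, Cacng2, Kcnj5, Kcnk4 and Kcnk5. Just outside it, with 6 values but only 2 in an orientation, were Cacnb4 AK014145 (median 1.26), Kcnh5 (median -0.93, from -7.51 to 8.33) and Kcnj3 (median -0.21).

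Related genes outside the families (pacemaker, chloride and transient receptor potential channels, scaffolds and channel regulators) passed in neither part. Of all tested probes 0% passed in the shared part and 1.56% in the turning part, so few calls could be looked for here. For each gene only 1 tested probe was read, that with values on the most arrays. Further tested probes, as for Ryr1 with 6 tested, are not covered. Of 67 listed, 44 could be tested, with a median shared part of -0.30 and 31 of 44 negative, against 53.9% of all tested probes. At an unadjusted p under 0.05 the shared part had 8 (18.2%, against 13.9% of all tested probes), 6 negative and 2 positive. The turning part had 11 (25%, against 13.8%), 6 positive and 5 negative. In the shared part the smallest p-values were those of Trpm7, a magnesium- and calcium-permeable channel with a kinase domain (-2.26 ± 0.50, limma adjusted p = 0.168), Dlg3, a synaptic scaffold (-2.70 ± 0.57, adjusted p = 0.169), and Clcn2, a chloride channel (-1.34 ± 0.36, adjusted p = 0.207). In the turning part they were those of Hcn3, a pacemaker channel (2.34 ± 0.53, adjusted p = 0.072), Dpp6 and Gem, which inhibits calcium channels through their beta subunits (1.32 ± 0.39, adjusted p = 0.148).

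No cell type marker passed the threshold in either part, with 1 probe read per gene as for the related genes. Of all tested probes 0% passed in the shared part and 1.56% in the turning part, so this is not a result about the markers. Neuronal markers (7 of 12 listed could be tested) had a median shared part of -1.07, with 5 of 7 negative (-0.59 with 3 of 6 negative without the arrays coded r), and a median ratio per array of -2.08 to -0.40 with ethanol in Cy3 and of -1.68 to 0.67 with it in Cy5, positive on replicates 6 and 8. Astrocyte markers (7 of 8) had a median of -0.87, 6 of 7 negative, with medians per array of -1.43 to -0.22 and -1.30 to 0.37. Neural progenitor markers (8 of 8) had a median of 0.69, 7 of 8 positive, with medians per array of 0.24 to 0.78 and 0.19 to 1.88. The channel probes' own medians per array were -0.71 to 0.17 and -0.66 to -0.18. Markers of the oligodendrocyte lineage (5 of 8) had a median shared part of -0.48, 3 of 5 negative, and those of microglia (3 of 6) -0.52, 2 of 3 negative. The 1 muscle marker of 8 that could be tested, Tnnt2, had 0.38. Median turning parts were 0.43 for neurons, -0.29 for astrocytes, -0.05 for progenitors, 0.35 for the oligodendrocyte lineage and 0.42 for microglia. That of all tested probes was 0.11. As deposited the same medians were 0.75, 0.02, 0.27, 0.67 and 0.78, against 0.42 over all tested probes. Without the arrays coded r that of astrocytes was 0.29 and that of progenitors 0.02, so the signs of these medians depended on the setting. The progenitor marker Pax6 came nearest to passing in the turning part, with 3.82 ± 0.84 (limma adjusted p = 0.0572). Its ratios ran from -4.96 to 3.04 with ethanol in Cy3 and from 3.07 to 7.13 in Cy5. C1qa of microglia had 1.39 ± 0.38 and S100b of astrocytes 1.25 ± 0.36 (adjusted p = 0.124 and 0.139). The files hold no intensities, so levels of these markers are not known, and their part in the channel values was not tested.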

How the data were processed

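Per the labels' protocols, total RNA was extracted with Trizol, purified on RNeasy columns and labelled through Genisphere's 3DNA system. The authors deposited 1 log2 ratio per probe and array; no source used here names the scanner, background correction or normalization. The file holds no intensities, so the number of arrays limits the precision. Exact 0 and each array's highest value were taken as missing, though no source used here says what they mean. Each array was centred on its median (-0.44 to 0.52 as deposited). Probes with values on 3 or more arrays of each orientation were fitted in R 4.3.3 by limma 3.58.1's lmFit and eBayes, with the orientation coded -1 for ethanol in Cy3 and 1 for Cy5, and adjusted by Benjamini-Hochberg over all 15345. The fit was tested on simulated data. Gene names came from the platform annotation, which is old. All 111 members matched a current gene by Entrez number with the same symbol.

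Named with values were members past the threshold, the 12 with the smallest p in each part and genes with several tested probes. The 23 tested genes from a list of neuronal and glial channels were named too, some of them already covered by these rules. Members given with an unadjusted p only, or for a value over 5, were chosen after their values were seen. The members and all lists were chosen with earlier results of these data known. Other scalings, filters, blocks and leaving out each array were tried.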

Additional observations from a re-analysis of the deposited data

Results flagged for a closer look

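The probes of 3 genes differed between the dye orientations by the fit's own test of that difference. Their turning parts were 4.27 for Kcnip2, -2.91 for Cacna2d1 and -2.69 for Cacng3, with the values per array given above. Whether this is the ethanol effect, a dye effect or another difference between the 2 sets of arrays cannot be told apart.

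Among 138 sets of 4 arrays (1 tested channel probe in 1 orientation each), 1 array stood apart from the other 3 by Dixon's test in 6, and the test picks out about 1 in 20 by chance. With ethanol in Cy3, replicate 2 gave 2.35 for Cacna1a (AK017088), where the others lay between -0.80 and -0.42, replicate 3 gave 1.20 for Cacna1b, where the others lay between -1.24 and -0.88, and replicate 4 gave -2.04 for Kcnh3. With ethanol in Cy5, replicate 5 gave -1.48 for Kcnip1, replicate 6 gave -5.17 for Kcnk7 and replicate 7 gave -2.62 for Kcnj1.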

How the results depend on the processing

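The count of channel probes past the threshold in the shared part was 0 under every setting tried. In the turning part the count of 3 became 1 with values required on all 8 arrays, where Kcnip2 and Cacna2d1 have too few values and Cacng3 still passed. It was 1 with exact 0 kept as a value, 1 with the highest value kept as a value, 0 without the 3 arrays whose code ends in r and 0 with the code number as a fixed replicate block over 6 arrays, which also leaves out 2 arrays. Leaving out 1 array gave 1 to 3, with 1 without replicate 6, 7 or 8. Calls over all probes in the turning part were 239, against 417 as deposited, 73 without the r arrays, 59 with the fixed block and 143 to 188 with 1 array left out. Members with an unadjusted p under 0.05 in the turning part numbered 16 of 83, and 6 of 73 without the r arrays. With 1 array left out they numbered 10 to 17 of 84 to 88, lowest without replicate 8. In the shared part they numbered 17, and 11 to 19 with 1 array left out, lowest without replicate 1. Shares of all probes at an unadjusted p are not given for these settings, so these counts are not a result about the channels.

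Deviations of same-numbered arrays correlated by 0.04, 0.02 and -0.04. Such low values cannot show whether these arrays share a culture, since spread between arrays could hide it. As a random replicate block the code number left 3 calls. Medians over the members kept their sign except in the turning part as deposited (0.23) and without the r arrays (0.09), where the median of the shared part was -0.50 against -0.30 as reported. The r arrays hold 2 arrays of one orientation and 1 of the other, and what r stands for is not given in the sources used here.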
